A study of Mus musculus with 6 samples.

Results

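Ubiquitin-specific proteases (Usp genes) were compared between XY and XX mouse oocytes. Members were the probe sets that the platform annotation pairs with a single symbol made of Usp and a number, leaving out the Y-linked Usp9y. This gave 127 of 45037 probe sets, which belong to 50 of 18193 gene symbols. After a filter on dim probe sets, 97 probe sets of 47 genes were tested, out of 12442 genes in all. The family name does not hold for every member. Usp6nl encodes a GTPase-activating protein for Rab GTPases, Usp39 a splicing factor, and Usp46os2 an RNA from the strand opposite Usp46. Of the 50 symbols, Usp18, Usp26 and Usp44 did not pass the filter. A further 4 probe sets pair a Usp symbol with another gene and were left out.

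The oocytes were fully grown, at the germinal vesicle stage, and came from XX and XY females of B6.Y(TIR). In this strain a Y chromosome of Tirano origin on a C57BL/6 background leaves XY animals able to form ovaries. Both groups of females received 5 IU of equine chorionic gonadotropin at 25 to 29 days after birth, and oocytes with an intact nucleus were taken 45 to 47 hours later and freed of cumulus cells by pipetting. Each array was made from the RNA of 10 oocytes, from 3 XX and 3 XY females, labelled in 2 cycles from oligo(dT) primers and hybridised to an Affymetrix 3′ expression array. XX littermates were the controls, and the XX and XY samples differ both in the second X and in the Y. Oocytes of XO females, and oocytes still growing, also appear in the protocols and were not analysed here.

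Ubiquitin is a small protein that is attached to other proteins in single copies or chains, and many of these chains send a protein to the proteasome. Ubiquitin-specific proteases are the largest family of deubiquitinases, cysteine proteases that take ubiquitin off again. They thereby recycle ubiquitin, spare proteins from destruction, or reverse ubiquitin marks on histones and DNA repair factors. A fully grown oocyte is nearly silent in transcription and holds mRNA stored during growth, which is used or degraded during meiotic maturation and early development.

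In XY oocytes 7 of the 47 tested members fell and 0 rose, by limma with an adjusted p of 0.05. The 7 were Usp2, Usp9x, Usp43, Usp6nl, Usp27x, Usp53 and Usp45, with falls of 1.84-fold to 2.65-fold. The share that fell, 14.9%, stands beside 5.34% of all tested genes that were lower in XY and 7.86% that were higher. At an unadjusted p of 0.05, 12 members were lower and 3 higher, beside 13.3% and 18.9% of all genes. Over all genes, the share lower and the share higher depended on the scaling. They were 4.25% and 3.79% on the deposited intensities, 13% and 3.87% after median scaling, and 4.71% and 11.4% after scaling to the trimmed mean. The members lower and higher were 7 and 0, 15 and 0, and 6 and 0 under the same scalings.

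Across the family the log2 change had a median of -0.10, against 0.07 over all genes, and ran from -1.41 (Usp53) to 1.02 (Usp13). It was negative for 27 members and positive for 20. The member median was -0.30 on the deposited intensities and -0.46 after median scaling, where the median of all genes moved to -0.12 and -0.27. After trimmed mean scaling the medians were -0.01 and 0.18. The member median was above 0 without XX 2 (0.0050, against 0.07 for all genes), with the 3′ to 5′ ratio of the Actb control as covariate (0.05, against 0.04) and with XX 1 as the only XX array (0.04, against 0.03). In 15 of the 47 members (31.9%) all 3 XY arrays lay below all 3 XX arrays, beside 16.2% of all genes. In 6 members (12.8%) all XY arrays lay above, beside 22.6% of all genes. Only Usp17la, a member of a multicopy gene family, had passed the filter through 1 group alone, XX. On single probe sets 17 of 97 were lower and 0 higher, where 5.37% and 5.04% of all probe sets were. At an unadjusted p of 0.05, 4 were higher, beside 14.8% of all probe sets.

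**Figure D1:**
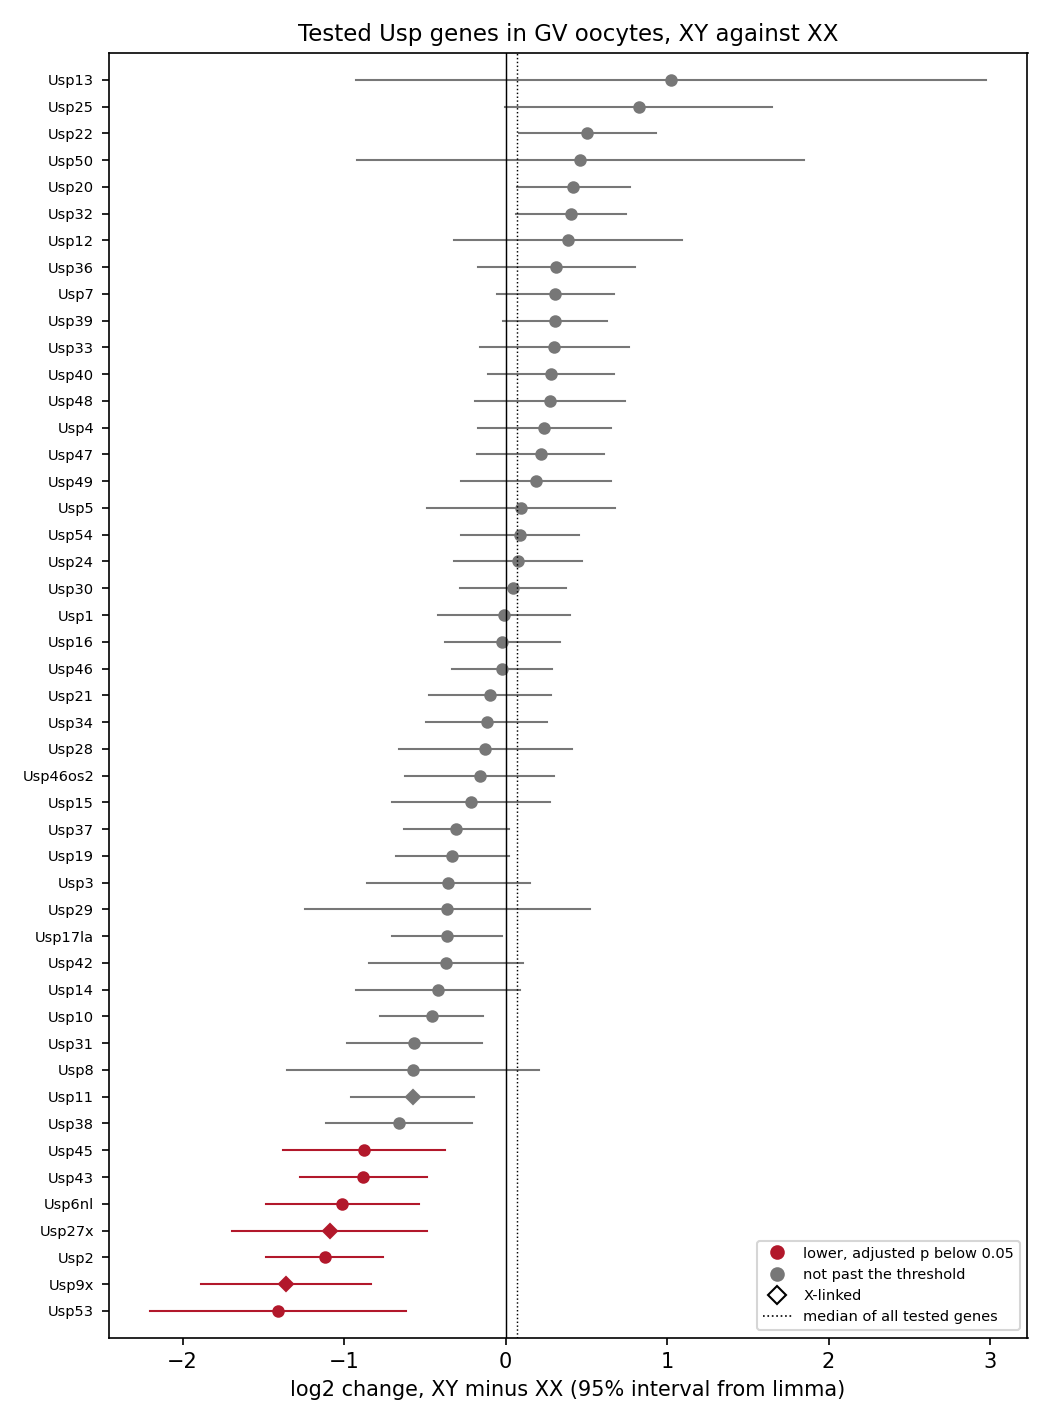
Log2 change, XY minus XX, of the 47 tested members with the 95% interval from limma; red marks the 7 members with an adjusted p below 0.05, all left of 0, diamonds mark X-linked members, and the dotted line marks the median of all genes, 0.07. The intervals of members such as Usp13 span a wide range on both sides of 0.

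X-linked members come first because XX and XY oocytes differ in X number, and both X chromosomes are active in a growing XX oocyte. Usp9x encodes a large deubiquitinase with a Y-linked copy, Usp9y, and is known to stabilise proteins such as Mcl1. Its log2 level (quantile-normalized intensity plus 9, then log2) was 10.97, 11.77 and 11.61 on the XX arrays, numbered XX 1 to XX 3. On XY 1 to XY 3 it was 10.08, 10.09 and 10.10. All XY values lay below all XX values, and XX 1 was the lowest XX array. The XX mean was 11.45 ± 0.43 and the XY mean 10.09 ± 0.01 (SD, n = 3 each), a change of -1.36 ± 0.22 (SE) or 2.57-fold lower, with limma's adjusted p = 0.0132. In deposited units the intensities were 1660, 4111 and 4233 in XX and 1125, 811 and 875 in XY.

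All 6 tested probe sets of Usp9x had negative changes, from -2.44 to -1.36, and 5 of them passed the test over probe sets. The exception, 1450037_at, had an adjusted p of 0.0685 and had passed the filter through XX arrays alone. Usp9y, left out of the member list, was dim: its deposited intensities were 1.16, 13.6 and 3.20 in XX and 30.7, 27.3 and 28.6 in XY. Its log2 change of 1.33 did not pass over all probe sets (adjusted p = 0.0911). Whether transcripts of one gene bind probes of the other was not tested.

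Usp27x encodes a relative of Usp22 that removes ubiquitin from histone H2B and shares partners with the SAGA complex. The XX arrays read 10.65, 9.78 and 9.83 on the log2 scale and the XY arrays 8.85, 8.98 and 9.16. The groups did not overlap, and XX 1 was the highest array. The change was -1.09 ± 0.26, or 2.13-fold lower (adjusted p = 0.0359). Leaving out any single array but XX 1 ended the call, with an adjusted p of 0.0585 to 0.0995, and so did averaging the gene's probe sets (0.0868). The dimmer probe set, 1427606_at, changed by -0.15 with overlapping groups.

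Usp11, an X-linked protease that acts in DNA repair, did not pass the test. Its log2 levels were 7.91, 7.90 and 7.88 in XX and 7.07, 7.50 and 7.38 in XY. Every XY array lay below every XX array, and the change was -0.58 ± 0.16 with a 95% interval from -0.96 to -0.19 (adjusted p = 0.0581). Usp11 passed in 5 of 19 alternative settings. Usp26, an X-linked gene best known from testis, was too dim to test, with deposited intensities of 17.7, 29.7 and 24.9 in XX and 2.10, 18.1 and 16.3 in XY. Thus 2 of 3 tested X-linked members fell, where 25.3% of all tested X-linked genes did. Their median change was -1.09, beside -0.28 over 375 X-linked genes. Off the X, 5 of 44 members fell, against 4.72% of the genes not on the X. The median there was -0.02, against 0.08 for those genes.

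**Figure D2:**
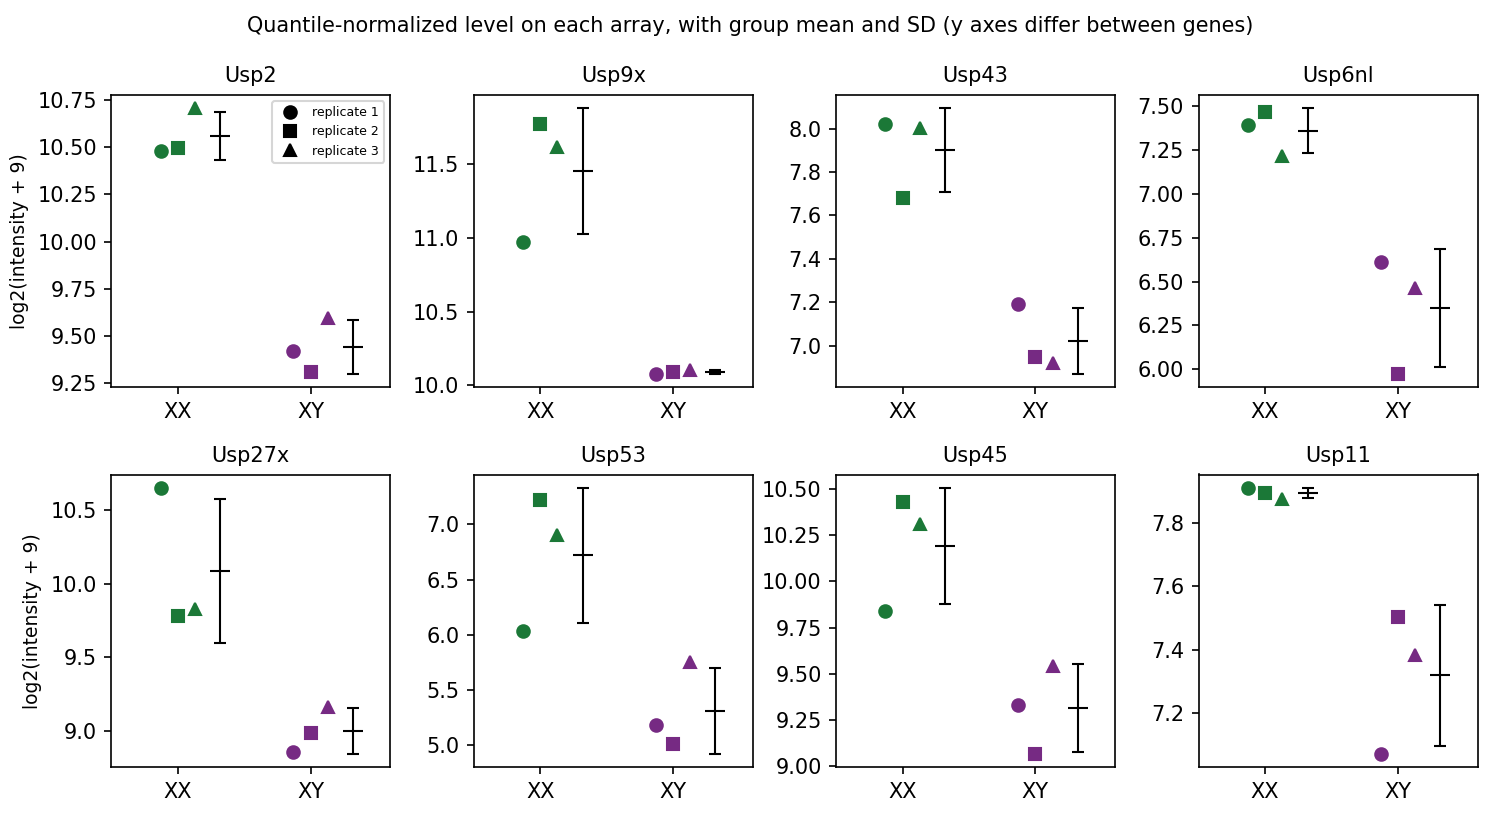
Log2 level on each array of the 7 members lower in XY oocytes and of Usp11, with 1 point per array, its shape giving the replicate number, and the group mean ± SD beside the points; y axes differ between genes. In each gene the 3 XY points lie below the 3 XX points, and the XX points of Usp53, Usp27x and Usp9x are spread most widely, with SDs of 0.61, 0.49 and 0.43.

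Among the autosomal members, Usp2 had the smallest adjusted p. It encodes a protease that removes ubiquitin from cyclin D1 and Mdm2 and is rhythmically expressed in many tissues. Its log2 levels were 10.48, 10.50 and 10.71 in XX and 9.42, 9.31 and 9.59 in XY. The XY values all lay below the XX values with a wide gap between the groups. The XX mean was 10.56 ± 0.13 and the XY mean 9.44 ± 0.14 (SD, n = 3 each), and the change of -1.12 ± 0.15 made it 2.17-fold lower (adjusted p = 0.00845). The other probe set of Usp2 was also lower, by a log2 change of -1.26. Deposited intensities were 1166, 1709 and 2286 in XX and 716, 478 and 622 in XY.

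Usp45 encodes a deubiquitinase of the DNA repair nuclease subunit Ercc1. The XX arrays read 9.84, 10.43 and 10.31 and the XY arrays 9.33, 9.07 and 9.54 on the log2 scale. The groups did not overlap, and XX 1 lay nearest to the XY arrays. The change was -0.88 ± 0.21, or 1.84-fold lower (adjusted p = 0.0391), and all 3 probe sets passed, with changes of -0.95, -0.88 and -0.74. Leaving out XX 2 (0.109), XX 3 (0.110) or any of the XY arrays (0.0669 to 0.122) ended the call.

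Usp43, measured by a single tested probe set, had deposited intensities of 202, 223 and 327 in XX and 148, 101 and 103 in XY. The groups did not overlap. On the log2 scale the means were 7.90 ± 0.19 and 7.02 ± 0.15 (SD, n = 3 each), and the change was -0.88 ± 0.17 (adjusted p = 0.0193). It did not pass without XX 3 (0.0642), XY 2 (0.0717) or XY 3 (0.0689). Usp6nl, the Rab GTPase-activating protein gene, lay at 7.40, 7.47 and 7.22 in XX and at 6.61, 5.97 and 6.46 in XY. All XY values were lower, the change was -1.01 ± 0.20 (adjusted p = 0.0221), and 2 of its 3 probe sets passed. Without XX 2 (0.0731), XX 3 (0.0548), XY 2 (0.0600) or XY 3 (0.0582) it did not.

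Usp53, whose product lies at tight junctions in epithelia, had the most negative change of the 7 and passed in the fewest alternative settings, 7 of 18. Its log2 levels were 6.04, 7.22 and 6.90 on the XX arrays and 5.18, 5.01 and 5.75 on the XY arrays. XX 1 lay closer to the highest XY array than to the other XX arrays. The change was -1.41 ± 0.34, or 2.65-fold lower (adjusted p = 0.0377), while the other tested probe set, 1444507_at, changed by 0.26. The call ended when XX 2 (0.102), XX 3 (0.112) or any of the XY arrays (0.0537 to 0.110) was left out, after trimmed mean scaling (0.0553) and when both probe sets were averaged (0.0724). Its tested probe set reached the array median on 4 of 6 arrays, whereas the other 6 members that fell did so on all 6.

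The stretch before the transcription start is printed for the 3 proteases that fell and have a promoter window in the RefSeq table (GRCm38.p6), because it is where a shared sequence feature would be sought. Each is the 250 bases before the start, 5′ to 3′ on the gene's strand, and capitals mark the GC box GGGCGG or its reverse complement CCGCCC. The windows are chr9:44084670-44084919 on the plus strand for Usp2, chrX:7375831-7376080 on the minus strand for Usp27x, and chr4:21776020-21776269 on the plus strand for Usp45. The starts of Usp2 and Usp45 used here lie inside the annotated span of each gene, so these windows do not mark its outer end.
Usp2: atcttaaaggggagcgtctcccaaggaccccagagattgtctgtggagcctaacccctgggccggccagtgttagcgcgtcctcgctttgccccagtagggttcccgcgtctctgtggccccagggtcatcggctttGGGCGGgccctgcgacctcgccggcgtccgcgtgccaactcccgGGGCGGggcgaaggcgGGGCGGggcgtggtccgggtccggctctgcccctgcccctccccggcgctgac
Usp27x: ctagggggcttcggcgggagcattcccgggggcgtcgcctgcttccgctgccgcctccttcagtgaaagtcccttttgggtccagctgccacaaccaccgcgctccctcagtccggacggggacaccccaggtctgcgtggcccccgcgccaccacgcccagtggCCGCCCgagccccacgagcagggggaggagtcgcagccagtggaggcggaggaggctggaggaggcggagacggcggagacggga
Usp45: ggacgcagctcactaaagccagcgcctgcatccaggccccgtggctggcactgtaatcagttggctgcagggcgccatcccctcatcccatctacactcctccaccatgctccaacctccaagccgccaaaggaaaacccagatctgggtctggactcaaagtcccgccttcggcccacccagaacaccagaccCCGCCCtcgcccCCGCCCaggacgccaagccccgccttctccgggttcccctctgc
They hold 3, 1 and 2 GC boxes, and their GC content is 71.6%, 72.4% and 65.2%. Usp6nl, which also fell but is no protease, is not printed. Its windows hold 4 and 1 GC boxes, with a GC content of 81.6% and 48.8%. Usp9x, Usp43 and Usp53 have no window. Of the 38 windows of tested members, which belong to 37 genes, 25 (65.8%) hold a GC box, against 54.2% of the 12822 windows of all tested genes. The median GC content was 65% over member windows and 59.2% over those of tested genes. Both strands were also searched for the E-box CACGTG, found in 4 member windows (10.5%, against 8.13%), CCAAT in 9 (23.7%, against 35.1%) and the TATA motif TATAAA in 2 (5.26%, against 7.17%). The homeobox element TAATTG, bound by the oocyte factor Nobox, was in 0 of 38 member windows and in 4.73% of those of tested genes. These counts describe letters in the windows and were not tested against the changes.

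Probe sets of 1 gene did not always move together. Of 27 members with several tested probe sets, 16 had changes of a single sign and 11 had both signs. Usp7, a deubiquitinase of Mdm2 and p53, had 7 tested probe sets with changes from -1.28 to 0.44, 5 of them negative. The brightest, 1419920_s_at, which stood for the gene, lay at 12.94, 12.58 and 12.67 in XX and 13.05, 13.06 and 13.01 in XY. Its XY values were all higher, and its change of 0.31 did not pass (adjusted p = 0.206). The probe set 1437118_at lay at 10.17, 10.67 and 11.20 in XX and 9.71, 9.10 and 9.39 in XY, a fall of 1.28 on the log2 scale that passed over probe sets (adjusted p = 0.0375). The gene value of Usp7 also turned to -0.15 after median scaling and to -0.28 when its probe sets were averaged, so no direction can be given.

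Usp12, a protease activated by the WD-repeat proteins Wdr48 and Wdr20, lay on its brightest probe set at 7.09, 7.03 and 6.57 in XX and 7.18, 6.78 and 7.89 in XY. These groups overlapped, and the change was 0.39 (adjusted p = 0.409). The dimmer 1425805_a_at was lower, at 5.85, 5.77 and 5.40 in XX and 5.08, 4.49 and 4.61 in XY (change -0.95, adjusted p = 0.0392). That probe set had passed the filter through XX arrays alone. Usp8, which acts on receptors sorted at endosomes, changed by -0.57 on 1 probe set and by 1.21 on the other, and neither passed (adjusted p = 0.0612 for the latter, kept through XY arrays alone). The 3 probe sets of Usp1 ran from -0.81 to -0.01 and the 3 of Usp34 from -1.08 to -0.12. In both genes the brightest probe set had the change nearest to 0, and none passed.

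**Figure D3:**
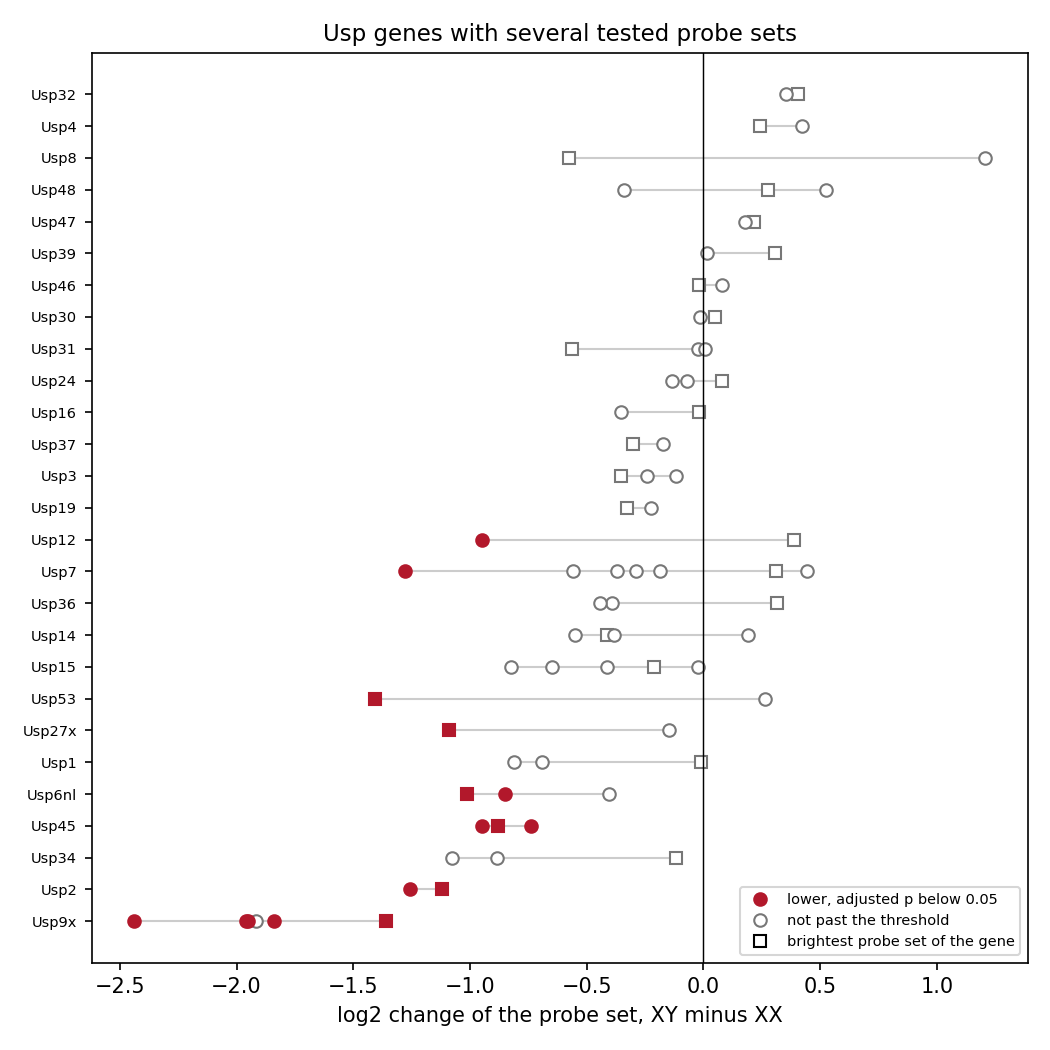
Log2 change, XY minus XX, of every tested probe set of the members with several tested probe sets; filled points mark an adjusted p below 0.05 over all probe sets, and squares the brightest probe set of a gene. The 6 points of Usp9x and the 3 of Usp45 lie left of 0, while those of Usp7 lie on both sides.

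In the list of DNA damage response proteases, 0 of 8 passed in either direction by limma, beside 5.34% of all genes lower and 7.86% higher. Usp45, which acts on Ercc1 and fell, was listed under signalling. Nearest to the threshold was Usp11, described above, and next Usp10, a deubiquitinase of p53 that also binds the stress granule protein G3bp1. Usp10 lay at 11.30, 11.44 and 11.39 in XX and 10.96, 10.92 and 10.88 in XY, and the change was -0.46 (adjusted p = 0.0656). The XY arrays all lay below the XX arrays. Usp10 passed in 6 of 19 alternative settings, among them without XX 1 (adjusted p = 0.0322). Usp1, which acts on Fancd2 and PCNA, changed by -0.01 with a 95% interval from -0.42 to 0.40. Usp24, Usp28, Usp47 and Usp48 changed by 0.08, -0.13, 0.22 and 0.28, with overlapping groups. The sign of Usp24, Usp47 and Usp48 turned on the deposited intensities (-0.25, -0.16 and -0.10) and after median scaling (-0.41, -0.33 and -0.26).

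Histone and chromatin proteases gave 1 fall, that of Usp27x, and 0 rises among 8 tested members, beside 5.34% and 7.86% of all genes. Usp22, the H2B deubiquitinase of SAGA, had log2 levels of 7.96, 7.53 and 7.77 in XX and 8.11, 8.48 and 8.19 in XY. The XY values were all higher, but the change of 0.51 ± 0.18 did not pass (adjusted p = 0.103), except without XX 1 or with array weights. The H2A deubiquitinases Usp3, Usp16 and Usp21 changed by -0.35, -0.02 and -0.10. The H2B deubiquitinase Usp49 changed by 0.19 and the nucleolar protease Usp36 by 0.31. After median scaling these were -0.29 and -0.14. On its dimmer tested probe sets Usp36 changed by -0.39 and -0.44, which did not pass. Usp3 passed in the lower direction without XX 1 only.

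The 3 proteases of the proteasome and of free ubiquitin chains did not pass, where 5.34% of all genes were lower and 7.86% higher. Usp14, bound to the proteasome, changed by -0.42 (95% interval -0.92 to 0.09), and Usp5, which takes apart free chains, by 0.10 (-0.49 to 0.68). Usp13, the close relative of Usp5, had the highest positive change of the family and the least certain. It lay at 6.45, 4.92 and 4.26 in XX and 7.20, 7.05 and 4.45 in XY. XY 3 lay among the XX values, the change was 1.02 with an interval from -0.93 to 2.97, and without XY 3 it was 1.94 (adjusted p = 0.109).

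The list of members acting at membranes and organelles gave 1 fall and 0 rises among 7 tested, beside 5.34% and 7.86% of all genes. The fall was that of Usp6nl, which is no protease. Usp30, of the outer mitochondrial membrane, changed by 0.05 with an interval from -0.28 to 0.37, and Usp19, with a form anchored in the endoplasmic reticulum, by -0.33. Usp20 and its relative Usp33 changed by 0.42 and 0.30, and Usp32, of the Golgi, by 0.40. The XY arrays of Usp20 and Usp32 all lay above the XX arrays, but median scaling turned the changes of Usp20, Usp33 and Usp32 to -0.0034, -0.17 and -0.13. Usp4 and Usp15, paralogs of Usp11, changed by 0.24 and -0.21, and median scaling turned Usp4 to -0.28.

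Of the WDR-activated proteases Usp1, Usp12 and Usp46, 0 of 3 passed in either direction, beside 5.34% of all genes lower and 7.86% higher. Usp46 lay at 12.49, 12.54 and 12.53 in XX and 12.47, 12.50 and 12.52 in XY. Its change was -0.02, with an interval from -0.33 to 0.29. Of members known from the germ line, Usp2 fell and 0 rose among 3 tested, beside 5.34% and 7.86% of all genes. Usp29, an imprinted gene, changed by -0.36, and Usp42 by -0.37. Usp44, known for a role at the spindle checkpoint, and Usp18, which removes the interferon-induced modifier Isg15, were too dim to test. Their deposited intensities were 2.35 to 20.3 and 6.37 to 31.0 over the 6 arrays.

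Among 8 members listed under interferon response and signalling, 2 were lower, Usp43 and Usp45, and 0 higher, beside 5.34% and 7.86% of all genes. The list mixes several roles. Usp38 lay at 9.11, 9.20 and 9.69 in XX and 8.78, 8.60 and 8.62 in XY. The groups did not overlap, and the change of -0.66 did not pass (adjusted p = 0.0629). Usp38 passed in 6 of 19 alternative settings, among them without XX 1 (adjusted p = 0.0318). Usp31 changed by -0.56 (adjusted p = 0.0770). Usp25 lay at 5.31, 4.62 and 3.97 in XX and 5.52, 5.78 and 5.07 in XY; XX 1 lay among the XY values, and the change was 0.83 (0.155). Usp34, Usp37 and Usp40 changed by -0.12, -0.30 and 0.28. The remaining members were Usp17la (-0.36), Usp39 (0.31, or -0.12 after median scaling), Usp46os2 (-0.16), Usp50 (0.46) and Usp54 (0.09, or -0.39 after median scaling), and none of them passed. Of Usp6nl, Usp39, Usp53 and Usp54, which lack or were long held to lack protease activity, 2 fell, beside 5.34% of all genes. A list of 4 genes is too short to make this a trait of such members.

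Deubiquitinases of other names and families were read beside the Usp genes. Of 36 tested, 3 were lower (8.33%, beside 5.34% of all genes) and 1 higher (beside 7.86%), with a median change of -0.16. All 4 belong to the OTU family, where 11 of 12 changes were negative, as were 44.4% of those of all genes. Otud1 fell from 8.59 ± 0.05 to 7.23 ± 0.17 (SD, n = 3 each), a change of -1.36 ± 0.15 (adjusted p = 0.00478). X-linked Otud5 changed by -0.89 (0.0227) and Otulin, which cuts linear ubiquitin chains, by -0.65 (0.0400), although Otulin did not pass on the deposited intensities. Both lost the call when any single array other than XX 1 was left out. Otud7a rose by 1.40 ± 0.18 (adjusted p = 0.00702). Otud1 passed in 18 of 19 alternative settings and Otud7a in 17.

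The families of UCH, Josephin and MINDY, and JAMM deubiquitinases gave 0 calls among 3, 6 and 12 genes. So did 3 genes of the Usp fold under other names (Cyld, Pan2 and Uspl1). Over all genes 5.34% were lower and 7.86% higher. The JAMM genes nearest to the threshold were X-linked Brcc3 at -0.69 (adjusted p = 0.0546), Stambpl1 at 0.67 (0.0630) and Psmd14, a proteasome subunit gene, at 0.67 (0.0634). Of 21 partners and activators of Usp proteins, 2 were higher and 1 lower (4.76%), beside 7.86% and 5.34% of all genes. Atxn7l1, a relative of the SAGA subunit gene Atxn7, rose by 1.37 ± 0.19 (adjusted p = 0.00849), and Fancd2, whose product is a substrate of Usp1, by 0.86 (0.0114). Fancd2 did not pass on the deposited intensities, after median scaling, as the mean of its 2 probe sets or without XY 2. Nor did it pass with replicate number as a block or with the Actb ratio as a covariate. Daxx, which binds Usp7, changed by -0.63 (0.0476) and lost its call on the deposited intensities and when any single array other than XX 1 was left out. Wdr48 and Wdr20, activators of Usp12 and Usp46, changed by -0.45 and -0.15 and did not pass. Uba6, a ubiquitin-activating enzyme gene, changed by 0.68 and did not pass (0.0571), and neither did Uba3, a subunit gene of the Nedd8-activating enzyme (-0.29).

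The arrays correlated at 0.967 to 0.983 within XX, 0.980 to 0.982 within XY and 0.940 to 0.962 between the groups, and XX 1 was the XX array most like the XY arrays. The 5′ control probe set of Actb read 45.9 in XX 1, 184 and 188 in XX 2 and XX 3, and 54.7 to 62.7 in XY. Its 3′ probe set exceeded the 5′ one by a log2 ratio of 5.53 in XX 1, 3.87 in XX 2, 3.996 in XX 3 and 5.20 to 5.90 on the XY arrays. XX 1 was the lowest XX array in 4 of the 7 members that fell. With XX 1 as the only XX array, 1 member passed (Usp27x), where 0.24% of all genes were lower, so few calls were made at all. With the Actb ratio as a covariate 1 passed (Usp27x), where 0.619% of all genes were lower. The change of Usp2 was -1.02 and -1.08 in these settings, against -1.12, and that of Usp9x -0.88 and -0.92, against -1.36. Without XX 1, 12 members were lower and 1 higher, where 10.6% and 16.8% of all genes were. The 3′ array reads polyadenylated mRNA after oligo(dT) priming, so a change in poly(A) tail and a change in amount cannot be told apart. Each array was made from 10 oocytes, so the number of oocytes was set. For any cells of other types, fewer cells and less RNA per cell cannot be told apart.

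Markers of the oocyte were present: 11 of 11 on the array passed the filter, with a summed deposited intensity of 70000 to 92200 in XX and 53500 to 71300 in XY, and 1 of them fell. Of 11 granulosa and cumulus markers 9 passed, summing to 1450 to 1740 and 1460 to 2380; Inha rose and Amh and Inhba did not pass the filter. Of 7 theca and stroma markers 4 passed, at 259 to 357 and 446 to 718, without Cyp17a1, Col1a1 or Col3a1. Of 5 blood and macrophage markers 2 passed, at 95.3 to 114 and 142 to 152, with a rise of Cd68. Of 4 endothelial markers 3 passed, at 212 to 377 and 224 to 300. The sums take the brightest probe set of every listed marker on the array, also of those below the filter, and are not scaled between arrays. The theca and blood sums were higher on every XY array, but 0 of the 4 tested theca and stroma markers passed by limma. The part of such cells in the changes of Usp genes was not tested.

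**Figure D4:**
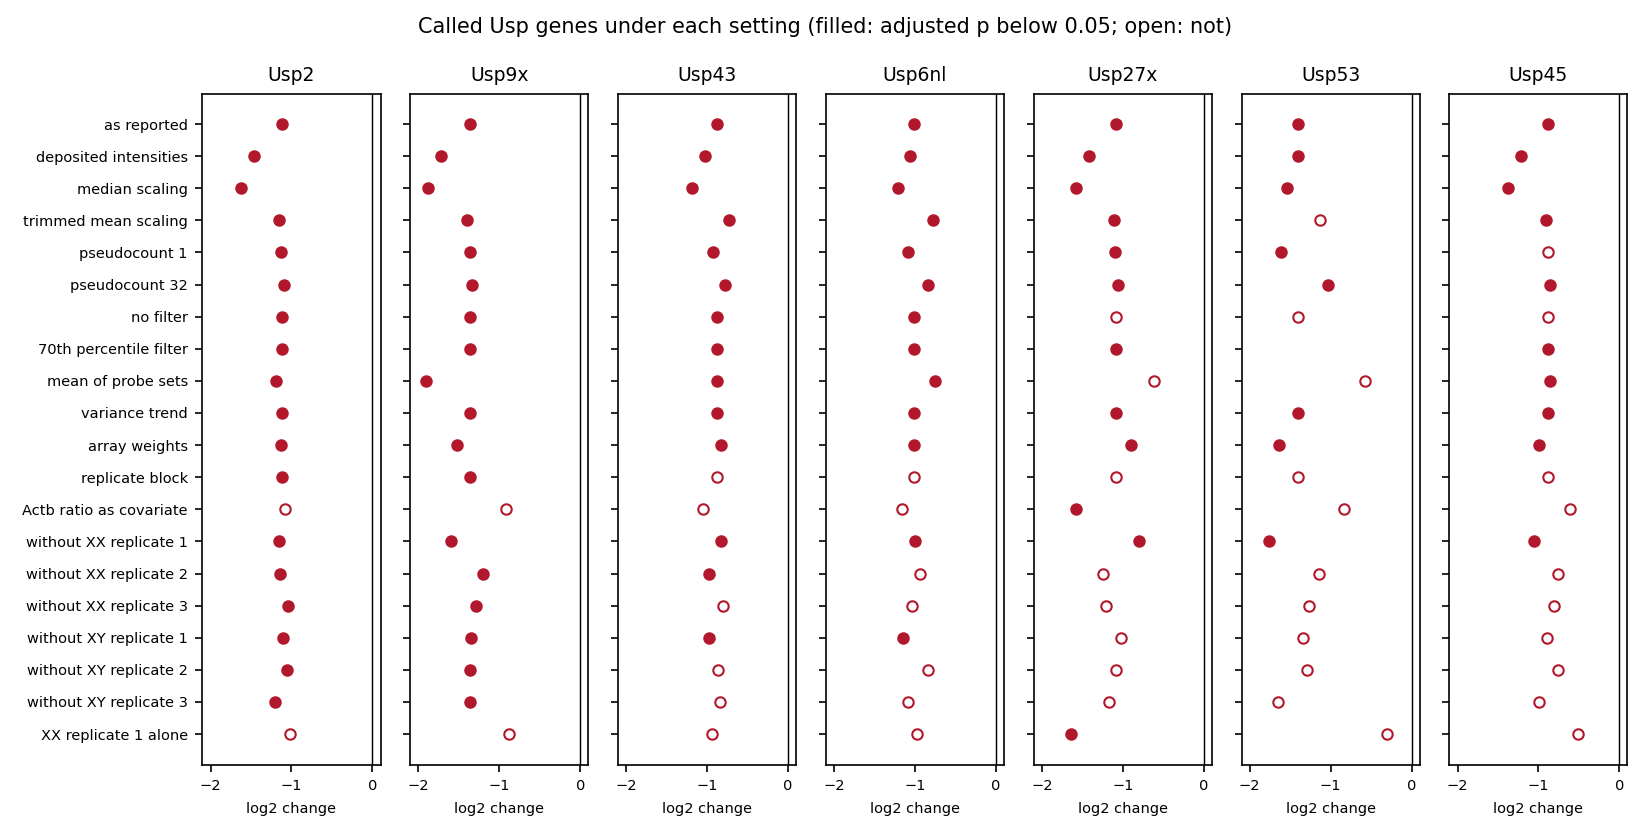
Log2 change, XY minus XX, of each member that fell, as reported and under every alternative setting; filled points mark an adjusted p below 0.05. All points lie left of 0, and Usp2 and Usp9x pass in 17 of 19 alternatives each.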

How the data were processed

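Per the labels, 6 arrays were biological replicates of XX (3) and XY (3) oocytes. The deposited table gives 1 linear intensity per probe set and array, and MAS5 is the only tool named in the submitters' processing notes; the sources used here give no version, target or detection call for it. Deposited arrays did not share a level (trimmed means 194 to 333), so they were quantile-normalized, which hides any change in total mRNA. The platform annotation named the genes, and the gene table of GRCm38.p6 gave current symbols and chromosomes.

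The values analysed (R 4.3.3, limma 3.58.1) were log2(intensity + 9), 9 being the 25th percentile of deposited values, and changes of dim genes are understated. Probe sets at or above the array median on at least 3 of 6 arrays were kept (22997). The brightest stood for its gene. XY was set against XX by lmFit and eBayes over all 12442 genes, with Benjamini-Hochberg adjustment at 0.05, and separately over 22415 probe sets with 1 symbol or none. The steps were tested on simulated data. Members with an adjusted p below 0.05, X-linked members, members whose probe sets disagreed and the next 4 by adjusted p or size of change were given by array. Array values of Usp22 and Usp46, and genes of other lists that did not pass, were chosen after their values were seen. Members, role lists and settings were chosen with earlier results of these data known. XX 1 alone was added after seeing the data. Same-numbered XX and XY arrays did not deviate together (r = -0.10, 0.00 and -0.04), so replicate numbers were not used as pairs. The number of arrays limits the precision.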

Additional observations from a re-analysis of the deposited data

How the results depend on the processing

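The changes of Usp2, Usp9x, Usp43, Usp6nl, Usp27x, Usp45 and Usp53 stayed negative under each of the alternatives that tested them. Usp2 and Usp9x passed in 17 of 19 alternatives, failing with the Actb ratio as a covariate (changes of -1.08 and -0.92, adjusted p = 0.0622 and 0.0707) and with XX 1 alone (-1.02 and -0.88, 0.0654 and 0.0610). Usp43 passed in 13, Usp6nl in 12, Usp27x in 11, Usp45 in 9 and Usp53 in 7 of 18. The count of 7 lower genes mostly moved along with the share of all genes called lower, 5.34% as reported. The count did not do so on deposited intensities (7, beside 4.25%) or as the mean of probe sets (5, beside 6.2%). It became 15 with median scaling (13% of all genes), 4 with no filter (1.91%), 12 with array weights (10.5%), 2 with the replicate block (2.05%), 1 with the Actb covariate (0.619%) and 1 with XX 1 alone (0.24%). It ran from 2 to 12 when single arrays were left out (1.58% to 10.6%). The count of 0 higher genes (limma) became 1 with a variance trend (Usp39), 3 with array weights and 0 to 1 with single arrays left out.

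The 17 lower probe sets became 11 on deposited intensities, 31 with median scaling, 5 with no filter, 30 with array weights, 6 with the replicate block, and by limma 0 with the Actb covariate (19 at an unadjusted p of 0.05) or XX 1 alone (16), and ran from 3 to 26 with single arrays left out. The share of all probe sets called lower, 5.37% as reported, was not counted under the other settings. In the settings with more than 1 XX array, the share of all genes called lower ran from 0.619% with the Actb covariate to 13% with median scaling. A share of genes is not a share of probe sets. Whether the members' probe set counts stand out under the other settings therefore cannot be told. The 0 higher probe sets became 1 on deposited intensities, with median scaling, trimmed mean scaling, a pseudocount of 32, a variance trend or array weights. With single arrays left out 0 to 1 were higher. Over the alternatives 29 of the 47 tested members took both signs, none of them among the 7 that fell, and median scaling turned 14. Among the members that the naming rule picks, reversed values were those of Usp12 (-0.28 as the mean of probe sets), Usp7 (-0.15 with median scaling, -0.28 as the mean of probe sets) and Usp13 (-0.038 with the Actb covariate, -0.22 with XX 1 alone). The causes were not tested. The labels do not say whether arrays of the same replicate number share a litter or a batch. Dim members such as Usp18, Usp26 and Usp44 were limited by signal over background.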
